A study of Rattus norvegicus with 6 samples.

Results

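Sox genes encode transcription factors that bind DNA through an HMG box related to that of the sex-determining factor Sry. The 10 members described here were Sox2, Sox4, Sox5, Sox6, Sox8, Sox9, Sox10, Sox11, Sox13 and Sox18. They were taken by name, as the probe sets to which the array's annotation gives exactly 1 gene symbol, that symbol being a member. Each member had 1 such probe set, so no choice between probe sets arose. They are 10 of the 18166 genes measured, and 10 of the 16 Sox genes with a probe set.

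RNA was measured on 6 expression arrays, 1 for each of 6 cultures from wild-type newborn Sprague-Dawley rats. Of these cultures, 3 were NSCPs, the nerve-derived Schwann cell precursors of the series title, taken from sciatic nerve, and 3 were SKPs, skin-derived precursors from back skin. The series describes the 3 cultures of each kind as independent isolates. The labels give both media in 1 passage that runs them together, and the split given here is a reading of it. The NSCP medium was read as holding 25 ng/ml neuregulin-1β, a growth factor of Schwann cells, and 5 μM forskolin, which raises cAMP, on plates with laminin and poly-D-lysine. SKPs were read as grown in spheres in FGF2 (40 ng/ml), EGF (20 ng/ml) and 2% B27, at 50000 cells/ml. The supplement read for the NSCP medium was 2% N2. By this reading tissue, medium and growth form changed together, so their parts in any difference below cannot be told apart.

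The family is divided into subgroups by the sequence of the HMG box. SoxE proteins (Sox8, Sox9 and Sox10) act in the neural crest, in glia and in cartilage, and Sox10 is required throughout the Schwann cell lineage, where it activates myelin genes together with partners such as Pou3f1 and Egr2. Sox2, of subgroup SoxB1, keeps neural progenitors undifferentiated, is expressed in immature Schwann cells and is raised again in them after nerve injury, and in mouse skin it marks the dermal papilla of certain hair follicles. SoxD proteins (Sox5, Sox6 and Sox13) lack an activation domain and modulate SoxE proteins. SoxC proteins (Sox4 and Sox11) are activators of progenitor and neuronal genes, and Sox18, of subgroup SoxF, acts in endothelial cells and in the dermal papilla.

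The values are log2 expression after RMA, the authors' normalization and summary of probes. Levels can be compared between arrays for 1 gene but not between genes, since each probe set has its own response. A level is called within background when its group mean does not exceed 5.32, a level that 95% of 227 odorant and vomeronasal receptor genes did not exceed. Differences are NSCPs minus SKPs with the standard error (SE) of a limma fit across all genes, and a gene is called when its Benjamini-Hochberg adjusted p over all 18166 genes is under 0.05. Over all genes, 43.7% were called, 25.2% higher and 18.6% lower in NSCPs, and the median difference was 0.14. Across genes, arrays of 1 kind of culture correlated at 0.984 to 0.993 and arrays of different kinds at 0.872 to 0.888.

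Marker lists were read beside the labels, and their counts stand beside the 43.7% of all genes called. Of 13 measured Schwann lineage markers 10 were higher and 2 lower in NSCPs, and of 10 fibroblast markers all 10 were lower. The list of macrophages and other leukocytes was lower in NSCPs in 12 of 12 members. Its mean level lay between 5.04 and 5.21 on NSCP arrays and between 9.74 and 10.79 on SKP arrays, with 4 of 12 members above background in NSCPs and 12 of 12 in SKPs. The part of these markers in the Sox results was not tested. Of 12 dermal papilla markers 2 were higher and 10 lower, of 6 neuronal markers 1 was higher and 2 lower, of 7 keratinocyte markers 2 were higher and 1 lower, and of 6 muscle markers 1 was higher and 1 lower. In such bulk RNA, fewer cells that express a gene and less RNA of it per cell cannot be told apart.

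Of the 10 Sox genes, 8 differed between the cultures. Sox10, Sox2, Sox5, Sox4, Sox13, Sox18 and Sox8 were higher in NSCPs and Sox11 was lower, while Sox6 and Sox9 were not called. The share called over all genes was 43.7%. For 8 members the 3 NSCP arrays and the 3 SKP arrays did not overlap, against 56.6% of all genes. The members' median difference was 0.91, beside 0.14 over all genes. Differences of at least 2-fold were found in 5 called members, 4 of them higher, against 17.4% of all genes called and at least 2-fold different. With limma's treat, in which the difference itself is set against a 2-fold change, 3 members passed (Sox10, Sox2 and Sox5), against 9.68% of all genes. Means exceeded background in both groups for 9 members and in neither for Sox18.

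**Figure D1:**
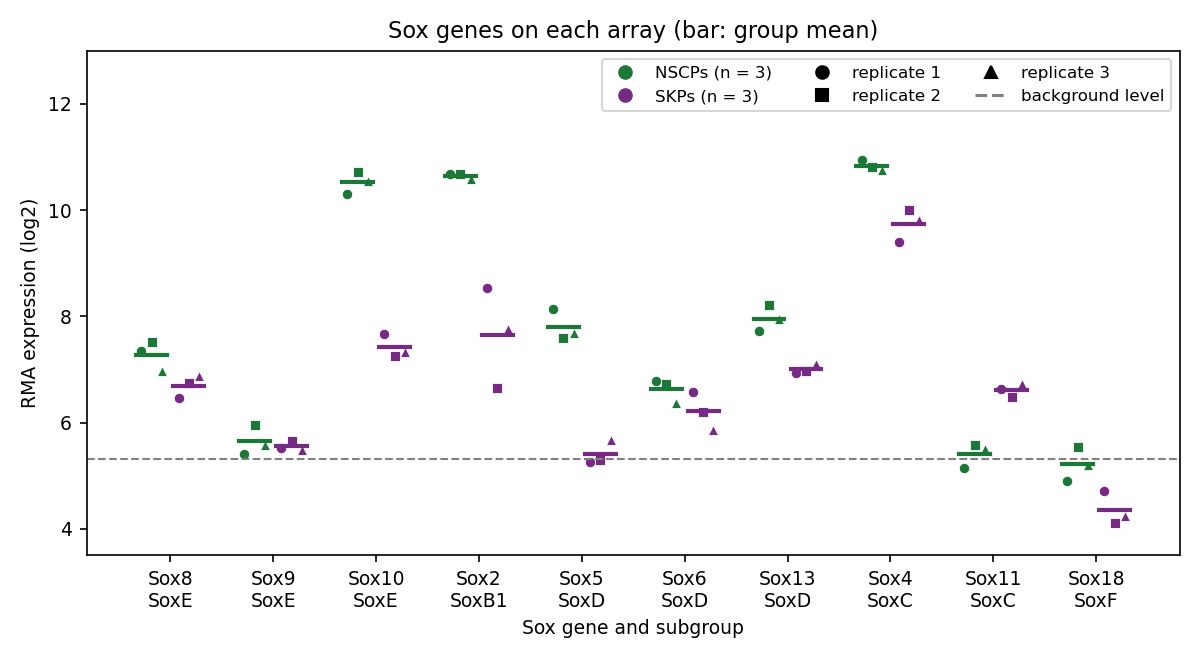
Expression of the 10 Sox genes on each array (log2, RMA), NSCPs in green and SKPs in purple, n = 3 arrays each, with a bar at each group mean and a dashed line at the background level of 5.32. Sox10, Sox2 and Sox5 stand widest apart, the SKP values of Sox2 spread from 6.65 to 8.54, and Sox11 is the member with its NSCP values below its SKP values.

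Promoter entries in RefSeq's GRCr8 sequences were matched for 4 of the 10 members, Sox2, Sox6, Sox11 and Sox13. The 250 bases before the start of Sox2 (chr2:119464881-119465130, plus strand) and of Sox11 (chr6:49738795-49739044, minus strand) are shown, because these members had the largest differences up and down among the 4. They were searched for the Sox core motifs ACAAAG and ACAATG on either strand, with overlapping matches counted, and a match would stand in capitals.
Sox2: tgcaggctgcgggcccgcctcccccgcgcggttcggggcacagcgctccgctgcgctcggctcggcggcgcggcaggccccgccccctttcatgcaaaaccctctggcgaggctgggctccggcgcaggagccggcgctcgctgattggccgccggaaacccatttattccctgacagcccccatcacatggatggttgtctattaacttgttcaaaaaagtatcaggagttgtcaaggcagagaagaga
Sox11: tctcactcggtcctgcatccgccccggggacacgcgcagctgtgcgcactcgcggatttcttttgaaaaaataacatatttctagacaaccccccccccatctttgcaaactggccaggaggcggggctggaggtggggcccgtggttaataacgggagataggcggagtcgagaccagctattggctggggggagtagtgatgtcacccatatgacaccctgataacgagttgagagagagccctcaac
Neither window holds these letters, whereas that of Sox6 holds 3 matches, and 24.8% of 27457 promoters of the same length hold at least 1. The Sox2 window is 64.4% G or C with 23 CpG dinucleotides and that of Sox11 56.8% with 14, beside medians of 51.2% and 5 over all promoters. That of Sox13 has 30 CpG dinucleotides and that of Sox6 has 3.

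Among the SoxE genes, Sox10 differed most between the cultures. It stood at 10.30, 10.72 and 10.55 on the NSCP arrays and at 7.67, 7.26 and 7.34 on the SKP arrays. All NSCP values lay far above all SKP values, and the SKP values were themselves above background. Sox10 was 8.56-fold higher in NSCPs (difference 3.10, SE 0.16, adjusted p = 1.309e-06 by limma), a difference larger in size than those of 97.1% of all genes.

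Sox8, which overlaps in function with Sox10 in the crest and in glia, read 7.35, 7.51 and 6.97 on the NSCP arrays and 6.46, 6.75 and 6.87 on the SKP arrays. The groups did not overlap, but NSCP replicate 3 and SKP replicate 3 lay close together. Sox8 was 1.5-fold higher in NSCPs (difference 0.58, SE 0.17, adjusted p = 0.0250 by limma). That call was lost without NSCP replicate 1 (adjusted p = 0.0720), without NSCP replicate 2 (adjusted p = 0.0792) and without SKP replicate 1 (adjusted p = 0.0799), all by limma.

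Sox9, the SoxE factor of cartilage and of hair follicle stem cells, was near the background level in both cultures. It read 5.41, 5.96 and 5.58 in NSCPs against 5.53, 5.66 and 5.48 in SKPs. The groups overlapped and both means lay just above the background level. The difference of 0.10 (SE 0.16) did not pass (adjusted p = 0.647 by limma), with a 95% interval from -0.27 to 0.46, and it was -0.0573 without NSCP replicate 2. Of 12 measured cartilage genes described as Sox9 targets, 2 were higher and 2 lower in NSCPs, beside 43.7% of all genes called. Their median difference was 0.18. Hapln1, which encodes a link protein of proteoglycans, was at 4.08 ± 0.26 in NSCPs, within background, against 8.35 ± 0.80 in SKPs (mean ± SD, n = 3 each). The fibrillar collagen gene Col11a1 was lower by a difference of -2.99, and Cnmd (1.12) and Col9a1 (0.62) were higher with SKP means within background. Col2a1, the defining collagen gene of cartilage, was at 5.50 ± 0.28 in NSCPs against 5.46 ± 0.17 in SKPs (mean ± SD, n = 3 each), and the keratinocyte gene Krt14 at 5.48 ± 0.21 in NSCPs against 5.32 ± 0.32 in SKPs (mean ± SD, n = 3 each).

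Sox2 was at nearly the same level in every NSCP culture and varied widely among SKP cultures. The NSCP arrays read 10.67, 10.68 and 10.59, and the SKP arrays 8.54, 6.65 and 7.77. Its spread over the SKP arrays (SD 0.95) was larger than that of 99.4% of all genes, whose median SKP SD was 0.14, while its NSCP SD was 0.05. Sox2 was 7.98-fold higher in NSCPs (difference 3.00, SE 0.39, adjusted p = 3.480e-04 by limma). The fit takes the same variance in both groups, so this SE and p do not allow for the wider SKP spread. The difference was 2.49 without SKP replicate 2 and 3.44 without SKP replicate 1, and it passed in both cases.

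Some other values moved with Sox2 across the SKP arrays, on which replicate 1 was highest and replicate 2 lowest. The mean of the 12 dermal papilla markers was 8.95, 8.31 and 8.90 on SKP replicates 1, 2 and 3, and that of the 12 leukocyte markers was 10.79, 9.74 and 10.13. The mean of the 13 Schwann lineage markers was 7.29, 7.26 and 7.10 on the same arrays. The dermal papilla markers were split. Prdm1 (9.22, 6.55 and 8.34), Rspo3 (10.01, 7.79 and 9.23), Lef1, Crabp1, Trps1 and Fgf7 had the order of Sox2. Alx4 (9.48, 9.92 and 9.84) and Hey1 (6.12, 6.98 and 6.64) had the reverse order, and Alpl, Vcan, Corin and Fgf10 had other orders. Among the other marker lists, the keratinocyte mean also had the order of Sox2 (5.36, 5.08 and 5.26). The fibroblast and melanocyte means had the reverse order, lowest on replicate 1 (11.89 and 5.50) and highest on replicate 2. Sox10 and Sox18 had the same order of the SKP arrays as Sox2, the only members that did, and 20.5% of all genes had it too. With 3 SKP arrays, the part of any of these cell types in the level of Sox2 was not tested. On the NSCP arrays the dermal papilla markers had means from 5.74 to 5.82.

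**Figure D2:**
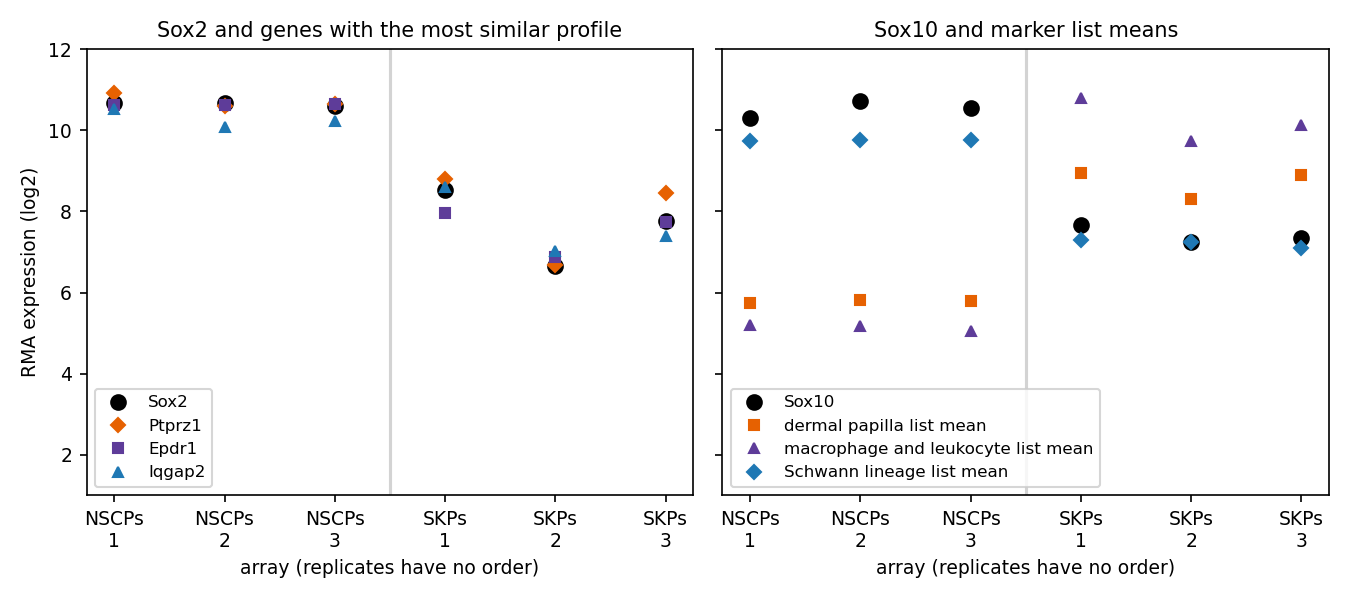
Left, expression of Sox2 and the 3 genes with the most similar profile on each array (log2, RMA). Right, expression of Sox10 beside the mean level of 3 marker lists on the same arrays. NSCP arrays stand left of SKP arrays, 3 each. SKP replicate 2 is lowest for Sox2 and for the dermal papilla and leukocyte means, and SKP replicate 3 for the Schwann lineage mean. Ptprz1, Epdr1 and Iqgap2, also lowest on SKP replicate 2, were chosen for their likeness to Sox2 on these arrays.

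The genes with profiles most like that of Sox2 over the 6 arrays, by root mean square distance between values centred on each gene's mean, were Ptprz1 (distance 0.24), Epdr1 (0.25) and Iqgap2 (0.32). Ptprz1, which encodes a receptor phosphatase of glia, read 10.93, 10.61 and 10.65 in NSCPs and 8.80, 6.68 and 8.45 in SKPs. It was chosen for its likeness to Sox2, so its order of arrays is no further result. Of 8 genes linked to Sox2 in neural progenitors, 2 were higher and 0 lower in NSCPs by limma, beside 43.7% of all genes called. At an unadjusted p under 0.05, 3 were higher and 2 lower. Nes, the gene of the progenitor filament nestin, was higher by 2.23 (SE 0.15). Cdh2, which encodes N-cadherin, was higher by 2.31 (SE 0.41), at 9.99, 9.84 and 9.97 in NSCPs and 8.41, 6.51 and 7.95 in SKPs, with the lowest SKP value again on replicate 2. Notch1, on the same list, was not called and differed by 0.38 (adjusted p = 0.0558 by limma).

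The SoxD genes differed in how far they departed between the cultures. Sox5, which in crest derivatives tempers the action of Sox10, read 8.15, 7.59 and 7.68 in NSCPs and 5.25, 5.29 and 5.67 in SKPs. SKP replicates 1 and 2 lay below the background level and the SKP mean of 5.40 just above it. Sox5 was 5.29-fold higher in NSCPs (difference 2.40, SE 0.18, adjusted p = 1.297e-05 by limma), a ratio set against a level near background. Sox13 read 7.72, 8.21 and 7.95 in NSCPs and 6.93, 6.97 and 7.10 in SKPs, without overlap, and was 1.94-fold higher (difference 0.96, SE 0.15, adjusted p = 8.978e-04 by limma).

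Sox6, the partner of Sox5 in cartilage, read 6.79, 6.72 and 6.37 in NSCPs against 6.57, 6.20 and 5.85 in SKPs. The groups overlapped, with SKP replicate 1 above NSCP replicate 3. Its difference of 0.42 (SE 0.20) did not pass (adjusted p = 0.123 by limma, 95% interval from -0.04 to 0.87). It passed without SKP replicate 1 (0.60, adjusted p = 0.0345), after a renewed quantile normalization (0.55, adjusted p = 0.0454) and with the replicate number as a block (0.42, adjusted p = 0.0429), all by limma. Without SKP replicate 3 it was 0.24 (adjusted p = 0.376 by limma).

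The SoxC genes went in opposite directions. Sox4 read 10.94, 10.81 and 10.75 in NSCPs and 9.40, 9.999 and 9.81 in SKPs. The groups did not overlap, and Sox4 was 2.14-fold higher in NSCPs (difference 1.10, SE 0.17, adjusted p = 7.884e-04 by limma). Sox11 read 5.14, 5.57 and 5.51 in NSCPs and 6.63, 6.47 and 6.72 in SKPs. NSCP replicate 1 lay below the background level and the NSCP mean of 5.41 just above it. Sox11 was 2.30-fold lower in NSCPs (difference -1.20, SE 0.15, adjusted p = 2.480e-04 by limma). The 95% intervals of the differences were 0.72 to 1.48 for Sox4 and -1.54 to -0.86 for Sox11.

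Among 6 genes described as SoxC targets, 2 were higher and 2 lower in NSCPs, beside 43.7% of all genes called. Tubb3, a neuronal tubulin gene, was 6.96-fold higher (8.33 ± 0.22 in NSCPs against 5.53 ± 0.19 in SKPs, mean ± SD, n = 3 each), and Prox1 differed by 0.40 with both means within background. The microtubule gene Map2 (-1.65) and the Hippo pathway gene Tead2 (-1.11) were lower. Dcx, a defining gene of young neurons, was within background at 4.03 ± 0.19 in NSCPs against 3.97 ± 0.07 in SKPs (mean ± SD, n = 3 each).

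The means of Sox18 were within background in both cultures. It read 4.90, 5.54 and 5.21 in NSCPs and 4.70, 4.10 and 4.24 in SKPs. The groups did not overlap, yet only NSCP replicate 2 exceeded the background level. Sox18 was called higher in NSCPs (difference 0.87, SE 0.21, adjusted p = 0.0092 by limma), a difference between 2 levels within background. Of 10 endothelial markers 2 were higher and 2 lower in NSCPs, beside 43.7% of all genes called. In each group 3 of the 10 were above background. The receptor gene Tek was higher by 1.91 and Emcn by 0.47, and the VEGF receptor gene Flt1 (-1.19) and Esam (-0.67) were lower. Of these, Emcn was within background in both groups, Tek in SKPs and Flt1 in NSCPs, and the groups overlapped for Flt1. The defining endothelial genes Cdh5 (4.87 ± 0.08 in NSCPs against 5.04 ± 0.22 in SKPs, mean ± SD, n = 3 each) and Vwf (5.11 ± 0.05 in NSCPs against 5.10 ± 0.13 in SKPs, mean ± SD, n = 3 each) were within background in both groups.

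**Figure D3:**
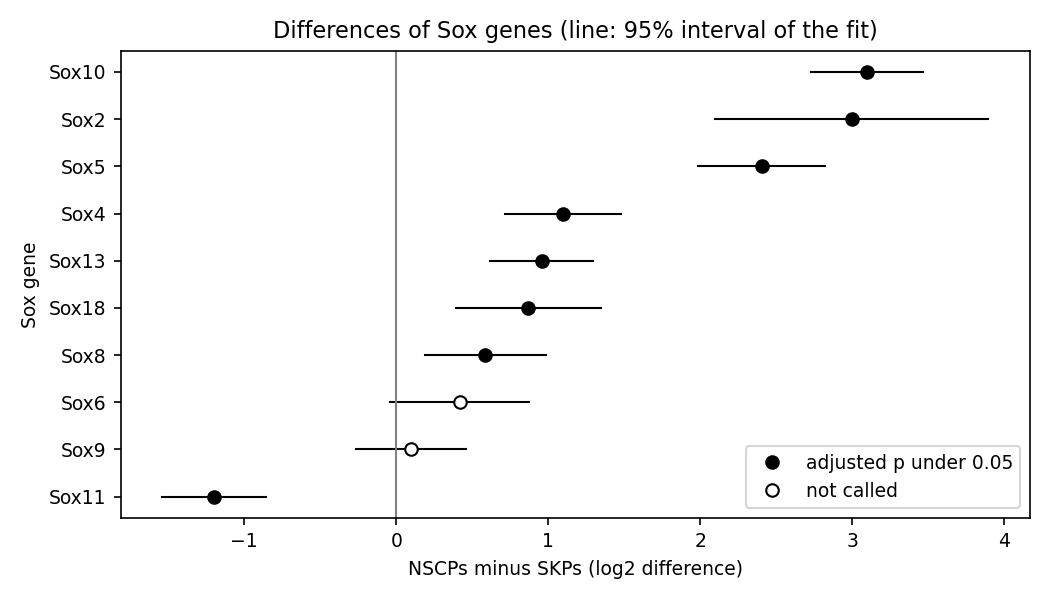
Difference of each Sox gene (log2, NSCPs minus SKPs) and the 95% interval of the limma fit (3 arrays per group). Filled points have an adjusted p under 0.05, the open points of Sox6 and Sox9 have intervals that include 0, and Sox11 alone lies to the left of 0.

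Each of the other 6 measured Sox genes differed by less than each of the 8 called members. By limma 2 of these 6 were called higher and 0 lower in NSCPs, beside 43.7% of all genes called. At an unadjusted p under 0.05 the counts were the same. Sox12, the remaining SoxC gene, read 8.75, 8.80 and 8.36 in NSCPs against 8.09, 8.29 and 8.15 in SKPs and was 1.38-fold higher (adjusted p = 0.0338 by limma). Sox15 was 1.46-fold higher (6.90 ± 0.07 in NSCPs against 6.36 ± 0.07 in SKPs, mean ± SD, n = 3 each). Sox7, at 5.94 ± 0.31 in NSCPs against 5.87 ± 0.05 in SKPs (mean ± SD, n = 3 each), and Sox14 (difference 0.17) were not called. Sox17, which acts with Sox18 in vessels, and Sox30 were within background in both groups.

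Genes described as targets of Sox10 in Schwann cells and other crest derivatives were mostly higher in NSCPs. Among the 17 with a probe set, 13 were higher and 2 lower in NSCPs, beside 25.2% and 18.6% of all genes. Their median difference was 2.94, beside 0.14 over all genes. Several of these genes are also markers used to recognise Schwann cells, so the list does not separate Sox10 activity from the kind of cell. Gjc3, a connexin gene of myelinating glia, was at 10.56, 10.28 and 10.32 in NSCPs and at 4.62, 5.45 and 5.28 in SKPs. Mbp, the gene of myelin basic protein, was at 10.14, 10.55 and 10.62 in NSCPs and at 5.30, 5.52 and 5.49 in SKPs. The SKP mean of Gjc3 lay within background and that of Mbp just above it. The neuregulin receptor gene Erbb3 was 27.5-fold higher in NSCPs (log2 SE 0.14), and Dhh, which encodes the hedgehog ligand that Schwann cells make, 21.5-fold higher (SE 0.21).

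Egr2 and Mitf were the 2 lower genes of this list and are named with their values known. Egr2, the factor that drives myelination together with Sox10, was at 9.69, 9.99 and 9.65 in NSCPs and at 11.53, 11.78 and 11.75 in SKPs (difference -1.91, SE 0.14). Pou3f1, the other partner of Sox10 named above and also on this list, went the other way (difference 4.37, SE 0.16). It was at 9.06, 9.24 and 9.16 in NSCPs and at 5.08, 4.51 and 4.77 in SKPs, with its SKP mean within background. Mitf, the master factor of melanocytes and also expressed by macrophages, differed by -2.43 (SE 0.16). Of 8 melanocyte markers 2 were higher (Dct and Tyrp1) and 2 lower (Mitf and Mlana), beside 43.7% of all genes called. The pigment enzyme gene Tyr was within background at 2.49 ± 0.07 in NSCPs against 2.50 ± 0.10 in SKPs (mean ± SD, n = 3 each). Ret and Mia did not pass and were within background in both groups.

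**Figure D4:**
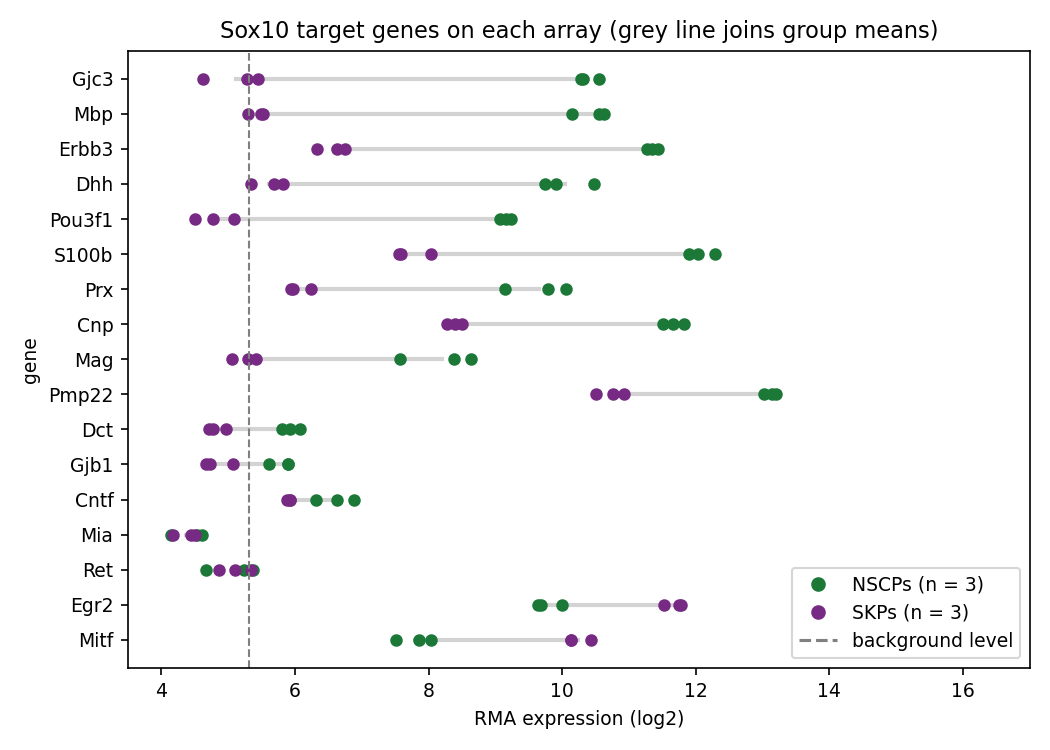
Expression on each array (log2, RMA) of the 17 measured genes described as Sox10 targets, NSCPs in green and SKPs in purple, 3 arrays each, ordered by difference, with the background level dashed at 5.32. The 13 genes higher in NSCPs stand at the top, and Egr2 and Mitf, at the bottom, have their NSCP values below their SKP values.

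Promoter windows were matched for 16 genes of the Sox10 target list, and 4 of them (25.0%) hold ACAAAG or ACAATG on either strand, beside 24.8% of all promoters. By these letters the list's windows were near the background share. The 4 are Cnp, Cntf, Dct and Mag, all higher in NSCPs, as were 13 of the 17 measured genes of the list. The windows of Dhh, Gjb1, Gjc3, Mbp, Pmp22, Prx and S100b hold no match, and these genes were higher too. Those of Egr2 and Mitf, which were lower, and of Ret and Mia, not called, hold none either. Ednrb, also among the 16, has no measured value. The windows of Dct (chr15:101508030-101508279, minus strand) and Mag (chr1:95291045-95291294, minus strand) are shown as examples of these 4, with matches in capitals.
Dct: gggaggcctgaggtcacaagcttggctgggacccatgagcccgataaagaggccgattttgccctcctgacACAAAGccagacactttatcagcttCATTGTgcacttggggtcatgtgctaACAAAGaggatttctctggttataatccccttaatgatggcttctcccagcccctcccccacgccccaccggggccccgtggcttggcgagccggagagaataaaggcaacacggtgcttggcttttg
Mag: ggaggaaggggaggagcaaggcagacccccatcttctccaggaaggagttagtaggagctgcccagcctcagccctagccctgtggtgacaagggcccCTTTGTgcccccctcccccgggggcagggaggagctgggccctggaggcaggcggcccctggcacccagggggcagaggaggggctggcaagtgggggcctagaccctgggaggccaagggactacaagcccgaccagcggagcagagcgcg
Dct, a pigment enzyme gene, has 3 matches, 179, 154 and 128 bases before its start, and Mag, a myelin glycoprotein gene, has 1, at 152 bases. Dct was higher in NSCPs with its SKP mean within background, and Mag was higher as well (7.58, 8.63 and 8.38 in NSCPs and 5.05, 5.30 and 5.42 in SKPs), also with its SKP mean within background. A match is a description of the letters and was not tested as a binding site.

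Over 6 arrays, the profiles most like that of Sox10 were those of Pllp (distance 0.07), Plxnb3 (0.10) and Ezr (0.11). Pllp, which encodes the myelin protein plasmolipin, read 8.61, 9.05 and 8.85 in NSCPs and 5.80, 5.58 and 5.67 in SKPs. Profiles near Sox9 were those of Ssbp4, Iba57 and Ddx56 (0.04 each), and near Sox18 those of Relt (0.10), Slc44a2 (0.10) and Tinagl1 (0.11). All of these distances describe 6 arrays in 2 groups.

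Of 21 partners and regulators of Sox proteins in crest and glia, 11 were higher and 2 lower in NSCPs, beside 25.2% and 18.6% of all genes. The list's median difference was 0.38. Id4, which encodes an inhibitor of helix-loop-helix factors, was 34.2-fold higher (10.99 ± 0.13 in NSCPs against 5.89 ± 0.29 in SKPs, mean ± SD, n = 3 each). The crest factor gene Foxd3 was 4.61-fold higher (log2 SE 0.16) and the POU factor gene Pou3f2 4.67-fold higher (SE 0.18). Tcf7l2, a nuclear effector of Wnt signals, was lower by a difference of -1.78 (SE 0.20), and Nab1, a corepressor of Egr2 named after its values were seen, by -1.78 (SE 0.17). Its relative Nab2, on the same list, was higher by 0.69 (SE 0.14). The deacetylase gene Hdac2, whose protein works with Sox10 in Schwann cells, was 1.58-fold higher, whereas Hdac1 (0.05) did not pass. Tfap2a, a crest factor gene also named after its values were seen, read 8.12, 8.05 and 8.03 in NSCPs and 9.32, 6.004 and 8.50 in SKPs, the same order of SKP arrays as Sox2, and was not called (adjusted p = 0.897 by limma).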

How the data were processed

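Expression was measured in 3 NSCP and 3 SKP cultures, 1 array each. The authors deposited log2 expression values made with the oligo package and RMA, per the submitters' processing notes, without versions. RMA equalises the distributions of probe values between arrays, which can hide a change common to most genes. The summarised values were not fully equal in distribution. Genes called higher in NSCPs numbered 4569 as reported, 4811 after renewed quantile normalization and 5634 after median centring. Of 36685 probe sets, 18511 carried 1 symbol, and 18394 of these were matched by Entrez ID to RefSeq symbols (GRCr8). For 291 genes with several probe sets the one with the highest mean was kept, leaving 18166 genes. No further normalization or filter was applied.

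The contrast of NSCPs minus SKPs was fitted with limma 3.58.1 (R 4.3.3) through lmFit and eBayes, and 2-sided p-values were adjusted by Benjamini-Hochberg across the 18166 genes, with calls under 0.05. The fit was also run on simulated data in which few genes were changed, unlike these data, so its outcome is not used here. The members, the 15 gene lists (145 of 159 genes measured) and the alternatives were chosen with earlier results of these data known. Named list genes are up to 4 called members with the largest difference, or, with fewer than 3 called, the 3 with the highest mean. Defining markers and genes printed beside a Sox gene, such as Col2a1, Krt14, Dcx, Cdh5, Vwf, Tyr, Sox14, Sox17, Sox30, Hdac1, Hdac2, Ret, Mia, Dct, Mag, Pou3f1 and Nab2, were added after the values were seen. The same replicate numbers occur in both groups. Deviations from the group means correlated at 0.037, 0.050 and 0.028 between same-numbered arrays and at -0.038 to 0.004 between the others. Whether same-numbered cultures share more than a number cannot be told from these values. The main fit had no block because the series describes the cultures as independent isolates. It took the same variance for a gene in both groups, and unequal spread, as in Sox2 and Cdh2, was not modelled. Detection calls, probe sequences and array batches were not used here, and whether probes of 1 Sox gene also catch a relative was not tested. The number of arrays limits the precision. Figures were drawn with matplotlib 3.10.9.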

Additional observations from a re-analysis of the deposited data

How the results depend on the processing

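Each result was recomputed with each array left out, with the replicate number as a block, with renewed quantile normalization or median centring, among genes above background, with the mean of probe sets, with adjustment over all probe sets, with a trended and robust prior, with array weights, at an adjusted p under 0.01 and by treat (against 2-fold). The calls of Sox10, Sox2 and Sox5 held under each of these. Under treat 3 members, 56 list genes (96 as reported) and 1758 of all genes (9.68%) passed, and Sox4 (1.10), Sox11 (-1.20), Sox13 (0.96), Sox18 (0.87) and Sox8 (0.58) did not, the last 3 because their differences are under 2-fold. Sox18 has no value among genes above background. Sox8 also missed the threshold at an adjusted p under 0.01 (0.58), with adjustment over all probe sets (0.58, adjusted p = 0.0524) and with array weights (0.31, adjusted p = 0.101), and its values without 1 array ran from 0.47 to 0.74. Sox6 passed with renewed quantile normalization (0.55), and its values without 1 array ran from 0.24 to 0.60. Sox9 ran from -0.0573 to 0.22 without 1 array, its sign turning without NSCP replicate 2. With the replicate block Sox6 passed (0.42, adjusted p = 0.0429) and 9 members were called, while 7681 of all genes were called against 7945 without the block. Between 7 and 8 members were called without 1 array. The causes of these changes were not tested. Median centring raised the median difference of all genes to 0.21. Sox5 in SKPs, Sox11 in NSCPs, and Sox9 and Sox18 in both groups lie near or within background, which limits their folds.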
